A study of Mus musculus with 2 samples.

Results

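The 51 genes described here encode proteins of the cytosolic ribosome, 29 of the large subunit and 22 of the small subunit, and were taken by symbol from a table of 10617 distinct genes. Members were the protein-coding entries named Rpl or Rps with a number, with or without a trailing a or x, together with the Rplp genes, Rpsa and Fau, and without entries named as pseudogenes. The rule used names and no measured value. The table compares nephron progenitor cells of the embryonic mouse kidney, the Six2-expressing cap mesenchyme that gives rise to the epithelium of the nephron, with and without Trp53, the gene for p53.

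Both groups were sorted by flow cytometry from kidneys at embryonic day 15.5 on a mixed CD1 and C57BL background, and both carried the Six2CreGFP transgene, so the Cre recombinase and GFP were present in the controls too. The wild-type group (WT) was Six2CreGFP+;p53+/+ and the knockout group (KO) was Six2CreGFP+;p53f/f, in which Cre removes floxed Trp53 sequence only in cells that express the transgene or descend from such cells. The number of embryos behind each library is not given in the sources used here. There was 1 library per group, so no difference below has a replicate check and no p-value is given. Trp53 itself had a read density of 33.9 RPKM (a read count divided by gene length and by library size) in WT against 5.38 RPKM in KO, a log2 difference of -2.45. Six2, which marks the progenitors, had 482 RPKM in WT and 509 RPKM in KO, and all 7 progenitor markers looked for were listed. Sall1, Pax2 and Eya1 were also higher in KO on these densities, by 0.20 to 0.33 on the log2 scale, whereas Cited1 (23.6 RPKM in WT, 16.1 RPKM in KO), Osr1 (a log2 difference of -0.38) and Wt1 (43.4 and 41.2 RPKM) were lower. The implied depth was about 91200000 reads in WT and about 85600000 in KO, which gave the median member an estimated 11896 and 10498 reads.

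A ribosome joins a small subunit, which reads the messenger RNA, to a large subunit, which forms the peptide bond, and each subunit is built on ribosomal RNA from single copies of most of its proteins. Messenger RNAs of ribosomal proteins begin with a terminal oligopyrimidine tract, through which mTOR signalling and Larp1 control their translation together. When assembly of the ribosome is disturbed, free Rpl5 and Rpl11 bind Mdm2, the ligase that marks p53 for degradation, and p53 accumulates. Ribosomal protein genes have also left many processed pseudogenes in mammalian genomes, copies of the spliced messenger RNA whose sequence can be almost the same as that of the gene.

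Near-identical copies were listed for 40 of the 51 members, so the gene and copy sequences of 6 members are shown first. Each stretch is 60 bases of coding sequence, 5′ to 3′, read from GENCODE vM21 transcripts of GRCm38, with positions counted from the A of the start codon of the gene. Capitals mark positions at which the lines of a set differ. Fau, whose product is a ubiquitin-like protein fused to the small-subunit protein eS30, was identical to its copy Gm9843 over all 399 coding bases, so no capitals stand in positions 1 to 60.
Fau: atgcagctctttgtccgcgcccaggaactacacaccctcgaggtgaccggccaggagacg
Gm9843: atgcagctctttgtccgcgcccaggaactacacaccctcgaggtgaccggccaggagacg

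Rps7, a small-subunit protein that can bind Mdm2, had listed copies AL807777.1 and Gm9493 with 3 mismatches each over the aligned coding bases. Positions 15 to 74 hold differences that tell the 3 apart.
Rps7: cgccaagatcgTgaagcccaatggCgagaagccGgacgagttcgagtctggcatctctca
AL807777.1: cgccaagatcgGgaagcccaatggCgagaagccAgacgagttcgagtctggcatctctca
Gm9493: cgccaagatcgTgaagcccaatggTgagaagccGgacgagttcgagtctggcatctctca

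Rps2, a small-subunit protein near the messenger RNA entry site, had 8 listed copies. Positions 25 to 84 are shown for the gene, for a copy that was higher in KO (Rps2-ps13) and for a copy that was lower (Gm5786).
Rps2: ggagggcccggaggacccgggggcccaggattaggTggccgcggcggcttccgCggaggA
Rps2-ps13: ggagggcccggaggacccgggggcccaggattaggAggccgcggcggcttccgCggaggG
Gm5786: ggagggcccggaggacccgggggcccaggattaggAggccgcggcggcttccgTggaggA

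Rpl29, a large-subunit protein that is dispensable for life in mice but needed for normal growth, had 6 listed copies. Positions 398 to 457 are shown beside the copy with the highest density (Gm10709) and the copy with the largest difference (Gm8210).
Rpl29: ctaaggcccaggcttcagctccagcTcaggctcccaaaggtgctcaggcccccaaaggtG
Gm10709: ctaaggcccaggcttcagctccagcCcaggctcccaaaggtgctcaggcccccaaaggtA
Gm8210: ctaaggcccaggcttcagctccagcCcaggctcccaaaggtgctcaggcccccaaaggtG

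Rps23, a small-subunit protein of the decoding centre, and its copy Rps23-ps differed at 5 of the bases in positions 175 to 234.
Rps23: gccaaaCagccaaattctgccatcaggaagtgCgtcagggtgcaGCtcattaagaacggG
Rps23-ps: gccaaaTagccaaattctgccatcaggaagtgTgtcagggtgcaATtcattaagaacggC

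Rps18, a protein of the head of the small subunit, matched AC122881.1 on the opposite strand of that locus, which the annotation types as a long non-coding RNA. Positions 312 to 371 are written on the strand of Rps18.
Rps18: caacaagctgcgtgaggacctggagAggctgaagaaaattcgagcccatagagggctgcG
AC122881.1: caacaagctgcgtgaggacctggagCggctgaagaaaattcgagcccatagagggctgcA

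The levels of the 51 members were far apart. Their WT densities ran from 3.25 RPKM for Fau to 1893 RPKM for Rplp1, a 582-fold range, with a median of 70.4 RPKM in WT against 72.8 RPKM in KO. In WT, 22 members lay over 100 RPKM and 9 lay under 10 RPKM. RPKM is scaled by gene length, but the level of a gene also depends on how reads were divided between it and its copies, so the order of these levels need not be the order of the transcripts.

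The highest densities belonged to the large subunit. Rplp1, an acidic protein of the stalk that recruits translation factors, had 1893 RPKM in WT and 1517 RPKM in KO. Rpl8, a protein close to the catalytic centre, had 1384 RPKM in WT and 1267 RPKM in KO. Rpl41, the smallest protein of the ribosome, had 1257 RPKM in WT and 1095 RPKM in KO. All 3 were lower in KO, as was Rplp0, the base of the stalk, at 751 RPKM in WT and 695 RPKM in KO. The lowest 2 WT densities, those of Fau and of Rps7 (3.27 RPKM in WT, 2.26 RPKM in KO), belonged to genes whose copies Gm9843 and AL807777.1 were listed at 1932 and 1451 RPKM in WT. The order of the members was nearly the same in both libraries, with Spearman's rho between their WT and KO densities of 0.99 over 51 genes, given as a description.

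**Figure D1:**
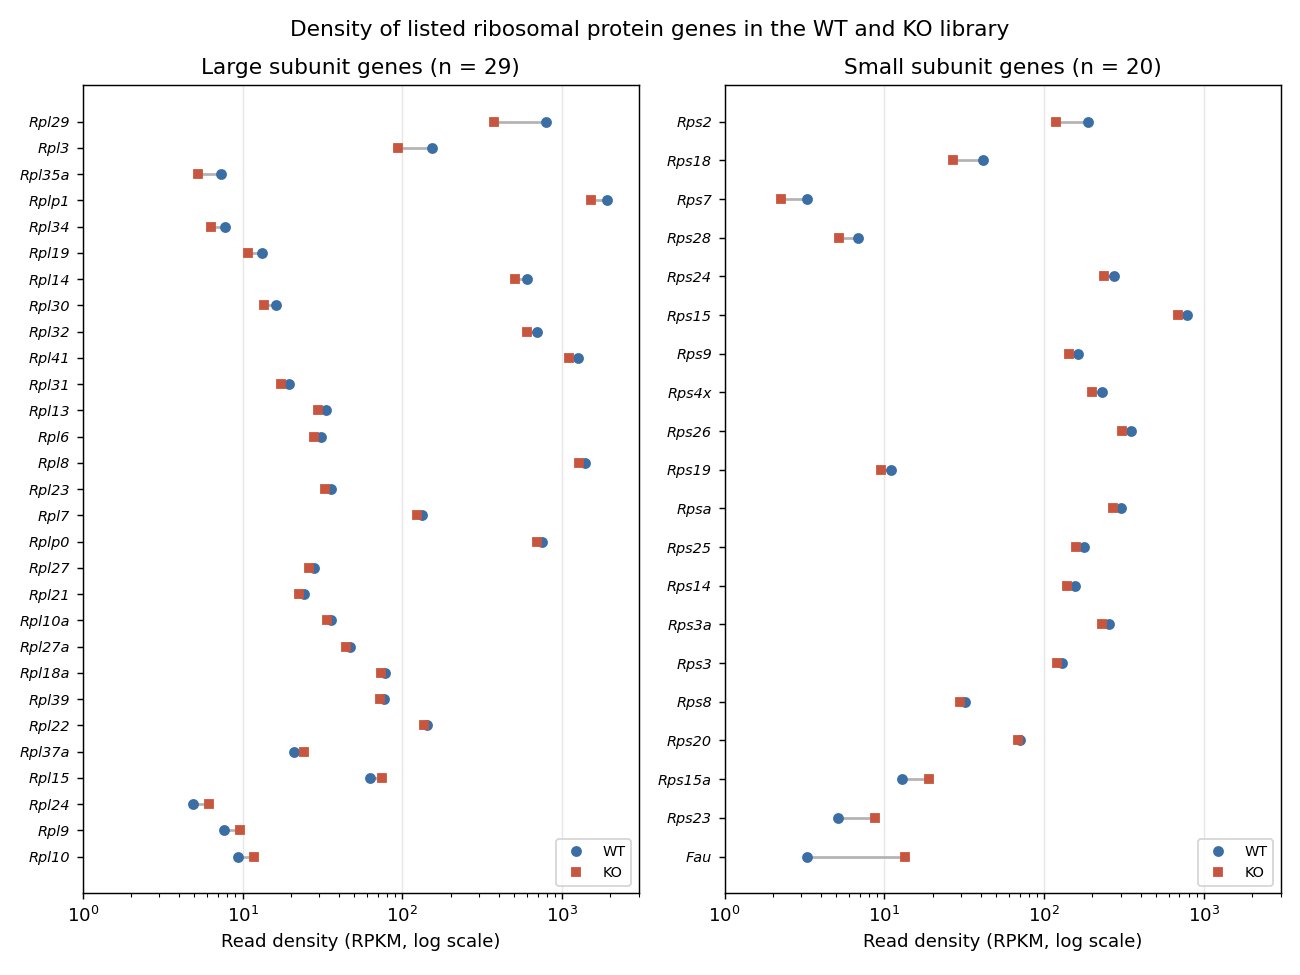
Read density in RPKM, on a log axis, of 49 of the ribosomal protein genes in the WT and KO libraries, 1 library each, with no error bars for want of replicates. Most KO points lie slightly left of WT, 41 lower and 8 higher on the deposited densities (29 lower after centring on all genes), with wide gaps at Rpl29, which is lower in KO, and Fau, which is higher.

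On the deposited densities, 43 of 51 members (84.3%) were lower in KO and 8 were higher, against 63.9% lower and 36.1% higher of all 10617 listed genes, and the count was 42 lower under the authors' own scaling but 30 lower once both libraries were centred on the median of all genes. Over genes in the upper 25% by mean density, where 37 of the members lay and 35 of those were lower, 59.2% of all genes were lower and 40.8% higher. The median difference of the members, as log2(KO + 1) minus log2(WT + 1), was -0.16, beside -0.11 for all listed genes and -0.072 for all genes over the 75th percentile of density. The large subunit had 24 of 29 members lower with a median of -0.12, and the small subunit had 19 of 22 lower with a median of -0.17. Every gene in the table had passed the authors' corrected p-value of 0.05, so genes of small difference are under-represented and these shares describe the listed genes alone. In bulk RNA, fewer cells of a type and less RNA per cell cannot be told apart.

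A difference of 1.5-fold or more was reached by 4 members lower in KO, where 5.49% of all listed genes were that much lower, and by 2 members higher in KO, where 0.951% of all listed genes were. Among genes over the 75th percentile of density these shares were 1.58% and 0.64%, and of the 37 members there 4 were that much lower and 0 that much higher. The 4 lower genes were Rpl29, Rpl3, Rps2 and Rps18, and the 2 higher genes were Fau and Rps23. Of the 40 members that have a listed copy, 26 lay between -0.3 and 0 on the log2 scale. The share of all listed genes in that band was not counted, so this count is not a trait of the members.

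Rpl29 (chromosome 9, 106429454 to 106431568, GRCm38) had 791 RPKM in WT against 375 RPKM in KO, a KO to WT ratio of 0.475 with an exact 95% counting interval of 0.469 to 0.481. Counting intervals here cover counting error only and say how precisely the 2 libraries differ, not the genotypes. It was the lowest of the 51 by log2 difference, -1.07, and the only member more than 2-fold lower. Rpl3, which helps shape the catalytic centre, had 153 RPKM in WT against 94.4 RPKM in KO, a ratio of 0.616 (0.606 to 0.625). Rplp1, at 0.801 (0.793 to 0.809), and Rpl14, at 599 RPKM in WT and 503 RPKM in KO, were smaller differences at high density. Rpl35a, a gene mutated in Diamond-Blackfan anaemia, had 7.34 RPKM in WT against 5.28 RPKM in KO, a log2 difference of -0.41. Rpl3 was thus the only other large-subunit gene below the 1.5-fold line.

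Other large-subunit members with roles beyond peptide bond formation lay near the median of all genes. Rpl23, which can bind Mdm2, had 35.6 RPKM in WT and 32.7 RPKM in KO. Rpl22, which is dispensable in most tissues but needed for alpha-beta T cells, had 143 RPKM in WT and 136 RPKM in KO, and Rpl10a had 35.9 RPKM in WT and 33.6 RPKM in KO. The log2 differences of these 3 genes were -0.12, -0.064 and -0.093, so after centring on all genes Rpl22 and Rpl10a were on the higher side.

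Of the large-subunit members that were higher in KO, none reached 1.5-fold. Rpl10, an X-linked protein near the catalytic centre, had 9.35 RPKM in WT against 11.8 RPKM in KO, a log2 difference of 0.30. Rpl9 had 7.65 RPKM in WT and 9.61 RPKM in KO, and Rpl15 had 62.7 RPKM in WT and 74.2 RPKM in KO. Rpl37a had 20.9 RPKM in WT and 24.1 RPKM in KO. The fifth, the row named Rpl24, had 4.93 RPKM in WT and 6.17 RPKM in KO, but its gene identifier belongs to Zbtb11 in GENCODE vM21, so that value may not describe Rpl24. Without it 43 of 50 members were lower, with a median of -0.16.

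In the small subunit, Rps2 and Rps18 were lower beyond 1.5-fold. Rps2 had 189 RPKM in WT against 117 RPKM in KO, a ratio of 0.623 (0.612 to 0.634), and Rps18 (chromosome 17, 33951999 to 33956001) had 41.1 RPKM in WT against 26.7 RPKM in KO, a ratio of 0.651 (0.629 to 0.673). On the authors' scaling the deposited table gives Rps18 a signed fold change of -1.48, just inside 1.5-fold. Rps7, at a ratio of 0.690 (0.606 to 0.785), and Rps28, at 6.82 RPKM in WT and 5.19 RPKM in KO, followed, both at low density.

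Several small-subunit genes known from human ribosome disease, chosen as examples, lay close to the median of the subunit. Rps19, the gene most often mutated in Diamond-Blackfan anaemia, had 10.9 RPKM in WT and 9.55 RPKM in KO. Rps14, the gene whose loss underlies the anaemia of the 5q- syndrome, had 155 RPKM in WT and 138 RPKM in KO. Rpsa, which is also known as the laminin receptor and is mutated in isolated congenital asplenia, had 303 RPKM in WT and 268 RPKM in KO. The log2 differences of all 3 lay between -0.18 and -0.16. Rps24 (271 RPKM in WT, 235 RPKM in KO) and Rps26 (348 and 306 RPKM), further genes of the same anaemia, were also lower, and Rps7 and Rps28, also mutated in it, were among the lowest members (above), whereas Rps15a was higher at 0.52. Rps3, which also works in DNA repair, had 129 RPKM in WT and 119 RPKM in KO, and Rps15 had 783 RPKM in WT and 683 RPKM in KO.

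The higher side of the small subunit held 3 genes, all under 20 RPKM in both libraries. Fau (chromosome 19, 6057888 to 6059524) had 3.25 RPKM in WT against 13.5 RPKM in KO, a ratio of 4.15 (3.64 to 4.75) from an estimated 285 and 1111 reads. Rps23 had 5.13 RPKM in WT against 8.77 RPKM in KO, a ratio of 1.71 (1.54 to 1.90), and Rps15a had 12.8 RPKM in WT against 18.9 RPKM in KO, a log2 difference of 0.52. These 3 were the largest positive differences of all 51 genes, and all 3 have listed copies at far higher density.

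No member lay between -0.035 (Rps20, 70.4 RPKM in WT and 68.7 RPKM in KO) and 0.20 (Rpl37a), a range that held 21.6% of all listed genes. Rps20 sits at its edge and is given as higher, 1.02-fold, in the authors' deposited table. Because the table holds only genes past the authors' corrected p-value, members with densities nearly equal on their scaling would not be in it. A list of 79 cytosolic ribosomal protein names had 51 in the table, and the 28 others are not analysed here as genes, Rpl5, Rpl11 and Rpl26 among them.

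Copies of 24 of those 28 genes were listed, however. Gm15500, identical to Rpl5 over its 891 coding bases, had 1462 RPKM in WT and 1413 RPKM in KO. Gm10288, with 1 mismatch to Rpl11, had 2108 RPKM in WT and 2006 RPKM in KO, and Gm15772, with 2 mismatches to Rpl26, had 1996 RPKM in WT and 1824 RPKM in KO. These 3, the copies of highest density for each of these Mdm2-binding proteins, were lower by small amounts, with log2 differences of -0.049, -0.072 and -0.13. The first 2 of these differences lay above the median of all genes. Of the weaker copies, Gm14217 of Rpl5 was higher at 0.29 (0.652 RPKM in WT, 1.02 RPKM in KO). Gm10136 of Rpl26 was lower at -0.26 (11.6 RPKM in WT, 9.52 RPKM in KO). Over the 37 copies with short gene models, which belong to 22 of these genes, 31 were lower and the median was -0.13. Of all listed genes, 63.9% were lower. A single copy stood far off, chosen after its values were seen: Rps13-ps1 had 0.391 RPKM in WT and 81.4 RPKM in KO, while Rps13-ps2, identical to Rps13 over its coding bases, had 464 RPKM in WT and 355 RPKM in KO.

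Copies of the members themselves were counted next. Of the 51 members, 40 had at least 1 listed copy at 95% identity or more over 80% or more of the coding bases, 87 copies in all, of which 63 are annotated as pseudogenes, 23 as protein-coding and 1 as a long non-coding RNA, and 85 have a single exon block. In 33 of the 40 families the strongest copy had a higher WT density than the gene, as with Rpl19 (13.2 RPKM in WT) and its copy Rpl19-ps11 (1620 RPKM in WT). In RPM, density times exon length and so a share of the whole library, 29 of the 40 genes held under 50% of the reads of their family and 14 held under 10%. The counting of reads that fit several places is not given in the sources used here, so how reads were divided between a gene and its copies, and what part that division has in any difference, was not tested.

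In some families the copies of a gene lay on opposite sides. For Rps7 (the first printed set with capitals), AL807777.1 had 1451 RPKM in WT and 2032 RPKM in KO while Gm9493 had 626 RPKM in WT and 116 RPKM in KO. For Rps2, Rps2-ps13 had 85.3 RPKM in WT and 182 RPKM in KO, whereas Gm5786 had 69.3 RPKM in WT and 43.9 RPKM in KO. For Rpl29, Gm10709 had 160 RPKM in WT and 85.7 RPKM in KO, lower like the gene, and Gm8210 went from 185 estimated reads in WT to 1518 in KO. Within each of these 3 sets, sequences that share nearly all of their bases were thus both higher and lower in the same pair of libraries.

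Most copies were lower by little. Of the 87 copies, 74 (85.1%) were lower in KO on the deposited densities with a median of -0.13, beside 63.9% of all listed genes lower. A difference of 1.5-fold or more was reached by 13 copies. Of these, 7 were lower (8.05% of the copies, against 5.49% of all listed genes) and 6 higher (6.90%, against 0.951%). The higher ones included Gm10263, a copy of Rps28, at 37.6 RPKM in WT and 131 RPKM in KO, Gm10020, a copy of Rpl15, at 49.3 RPKM in WT and 89.5 RPKM in KO, and AC122881.1 beside Rps18, at 124 RPKM in WT and 456 RPKM in KO.

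**Figure D2:**
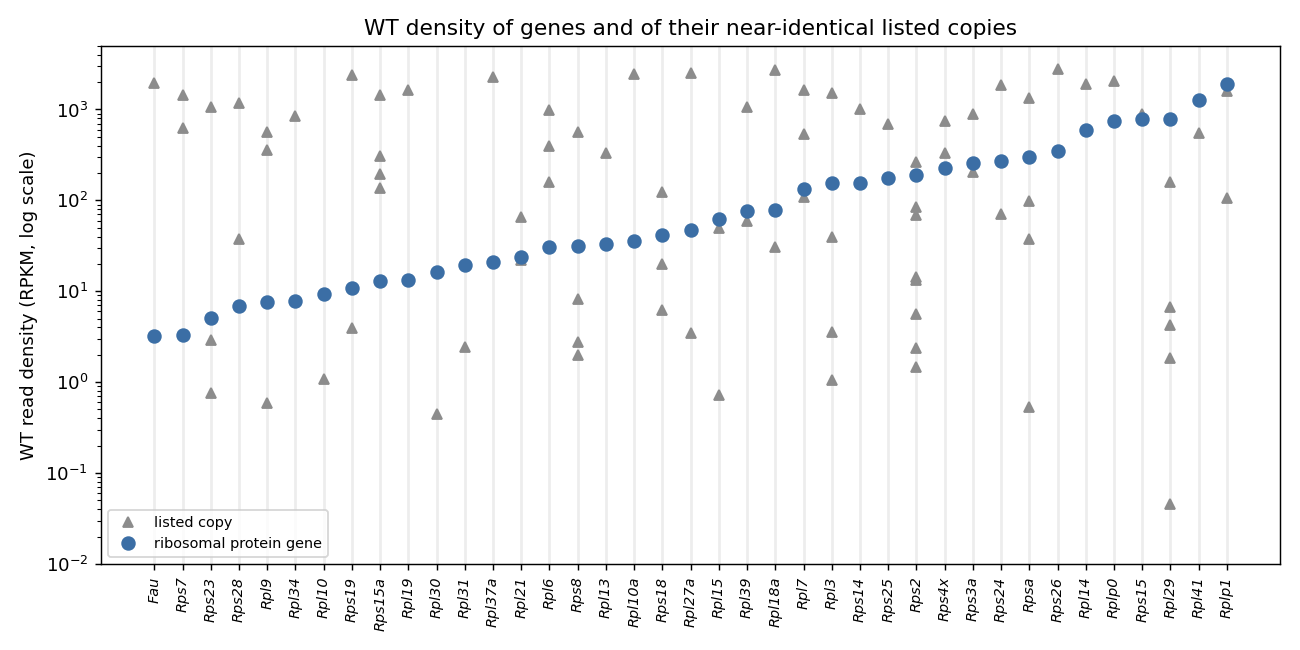
WT read density in RPKM, on a log axis, of 39 members that have a listed copy (circles, ordered by density) and of the 86 copies summed with them (triangles), 1 library. In 32 of the 39 columns the highest triangle lies above the circle, and 2 copies at 0 in WT (Gm2174 and Gm13545) cannot be drawn on a log axis.

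When the estimated reads of each gene and its copies were added, most of the large differences became smaller. The median over the 40 families, as log2 ratios with no pseudocount, was -0.11, beside -0.17 for the same 40 genes alone on that scale. Of the families, 32 lay between -0.3 and 0 on the log2 scale, a band in which all listed genes were not counted. The summed difference was smaller in size than that of the gene in 29 of 40. It had the opposite sign in 8, with Fau, Rps23, Rpl9 and Rpl37a moving to the lower side and Rps18, Rps2, Rps7 and Rps28 to the higher side. All families and members together went from 42775 to 39558 RPM, a log2 difference of -0.11, and the member genes held 31.3% of those reads in WT and 28.6% in KO.

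Fau shows the size of this. The gene had 3.13 RPM in WT and 13.0 in KO, while Gm9843, its identical copy, had 777 in WT and 715 in KO. The gene was 0.40% of the family in WT and 1.8% in KO, and the family as a whole had a log2 difference of -0.10. Rps23 was 1.4% and 2.6% of its family, which had -0.12. Rpl3, which held 20.6% of its family in WT and 13.7% in KO, went from -0.69 as a gene to -0.10 as a family, since Rpl3-ps1 had 1502 RPKM in WT and 1536 RPKM in KO. Rps2 went from -0.68 to 0.056, with the gene at 44.7% of family reads in WT and 26.8% in KO.

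Only 2 families stayed past 1.5-fold with these sums. Rpl29 held 91.5% of its family's reads in WT and 87.2% in KO, and the family had 973 RPM in WT and 484 in KO, a ratio of 0.498 (0.492 to 0.504) and a log2 difference of -1.01. The Rps18 family turned to 1.20 through AC122881.1, and to 0.56 when copies at 90% identity were added as well, which is under 1.5-fold. Rpl29 was thus the only member more than 1.5-fold lower under both ways of adding copies.

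**Figure D3:**
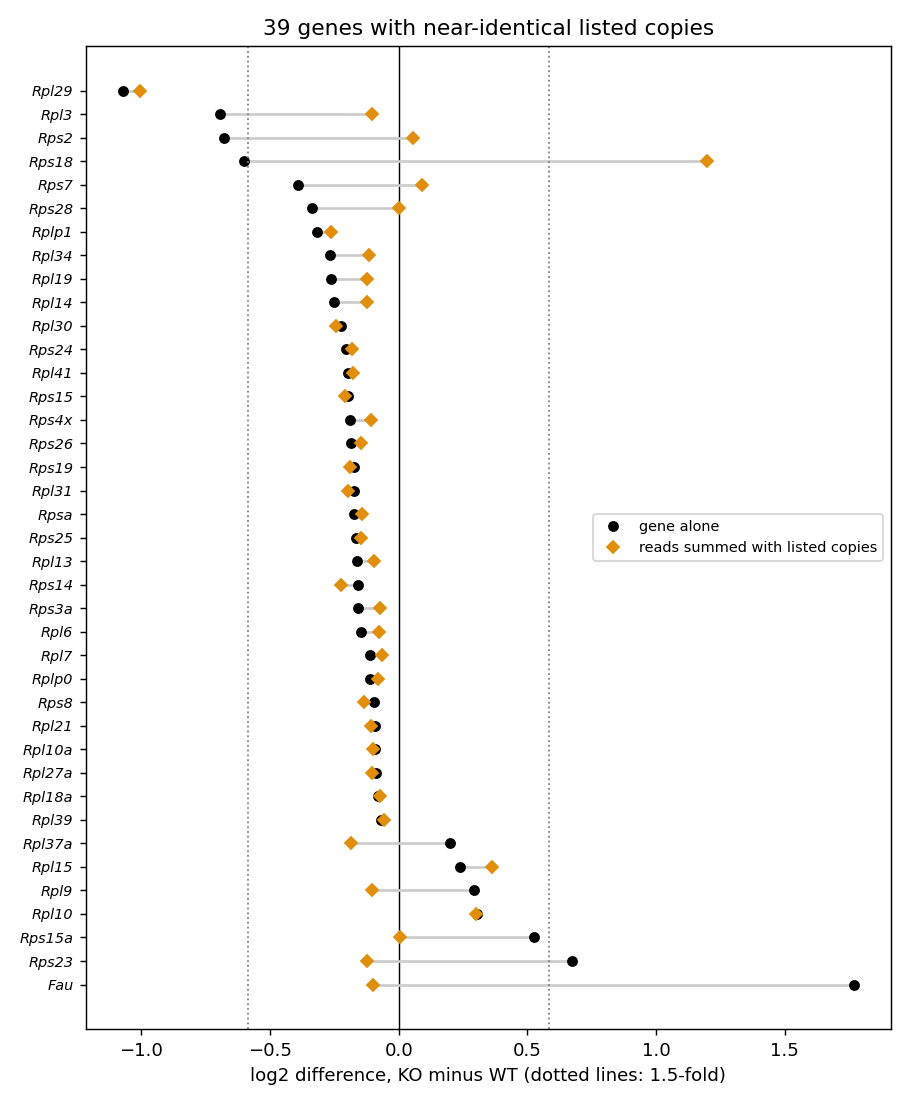
Log2 difference, KO minus WT, of 39 members with a listed copy (the gene alone) and of the gene with its copies added (the family), 1 library each. The family points lie between -0.3 and 0 in 31 of 39, a band in which all listed genes were not counted. Rpl29 stays near -1 both ways and Rps18 crosses from -0.60 to 1.20.

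For 11 members no copy at 95% identity was listed, with the row named Rpl24 taken by its identifier. Of them 2, Rpl22 and Rpl27, had a listed copy at 90% identity, and copies outside the table are not analysed here. Of these 11, 10 were lower on the deposited densities, where 63.9% of all listed genes were. Their median was -0.11, equal to that of all genes at this rounding, and none differed by 1.5-fold. Rpl32 had 691 RPKM in WT and 600.1 RPKM in KO, and Rps9 had 163 and 143 RPKM. The exception was the row named Rpl24, for which copies were sought with the coding sequence of its identifier, that of Zbtb11. Rpl24 itself had 2 listed copies, Gm9385 (903 RPKM in WT, 861 RPKM in KO) and Gm12254 (694 and 610 RPKM). Neither was added to a member.

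Genes that work with ribosomal proteins were looked at by list, beside 63.9% lower and 36.1% higher of all listed genes. Of 22 further names with terminal oligopyrimidine or related translation roles, 15 were listed, 8 lower and 7 higher on the deposited densities, with a median of -0.035. Eef1a1, the factor that brings charged transfer RNA to the ribosome, had 2345 RPKM in WT and 2357 RPKM in KO, and Eef2, which drives translocation, had 1169 RPKM in WT and 1142 RPKM in KO. Lowest were Eif3k, a subunit of an initiation factor, at -0.20, and Gnb2l1, the scaffold protein also called Rack1, at -0.15. Highest were Hnrnpa1, an RNA-binding protein, at 0.56 (141 RPKM in WT, 209 RPKM in KO), and Npm1, a nucleolar chaperone, at 0.32 (155 and 193 RPKM). Genes of this list therefore lay on both sides, and their median was above that of the ribosomal proteins; with 1 library per group the difference between lists has no test.

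Of 53 names of ribosome assembly factors 26 were listed, 16 higher and 10 lower on the deposited densities, with a median of 0.099. The lowest were Emg1, which modifies ribosomal RNA, at -0.20, and Sbds, which releases a factor from the new large subunit, at -0.13, and the highest were Npm1 at 0.32 and Rrs1 at 0.20. Ncl, the abundant nucleolar protein nucleolin, had 136 RPKM in WT and 150.3 RPKM in KO. Corrected for GC content and length, the median of this list was -0.037, on the other side of 0. For RNA polymerase I, which transcribes ribosomal RNA, 4 of 14 names were listed, Polr1d at -0.15, Polr1a at -0.053, Taf1d at 0.24 and Twistnb at 0.32.

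Of 15 regulators of ribosomal protein synthesis, 10 were listed, 8 higher and 2 lower, with a median of 0.17 (0.040 corrected for GC content and length). Myc, a transcription factor that drives ribosome production, had 27.5 RPKM in WT and 33.5 RPKM in KO. Larp4, which binds the poly(A) tail and its binding protein, was highest at 0.35. Eif4ebp1, the repressor of cap-dependent initiation that mTOR inactivates, was lowest at -0.31, with 41.8 RPKM in WT and 33.4 RPKM in KO, and Mnt, an antagonist of Myc, was at -0.11. Larp1 had 49.3 RPKM in WT and 50.9 RPKM in KO. Of the surveillance genes around p53, Mdm4, a partner of Mdm2, had 20.5 RPKM in WT and 22.8 RPKM in KO, and Gltscr2, a nucleolar protein that binds Rpl11, had 80.1 RPKM in WT and 73.9 RPKM in KO. Mdm2 is not analysed here. On the deposited densities no gene of the translation, assembly, polymerase or regulator lists differed by 1.5-fold, but Hnrnpa1 passed that line under the authors' scaling (0.62) and after centring on all genes (0.68).

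**Figure D4:**
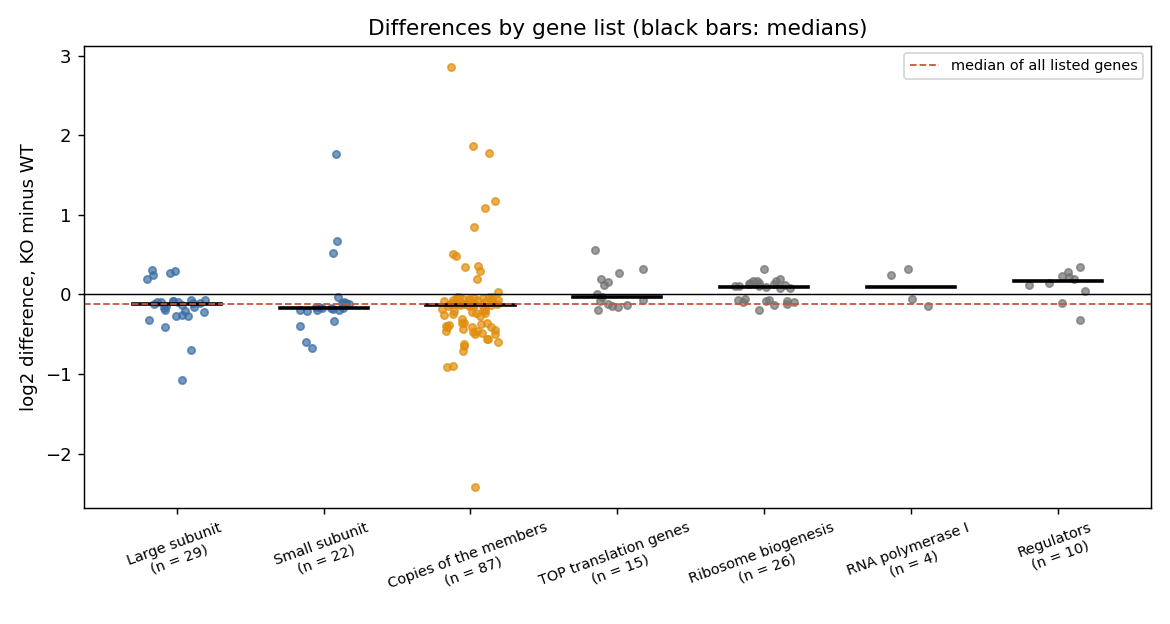
Log2 difference, KO minus WT, of every listed gene in 7 groups, with black bars at the medians, a dashed line at the median of all listed genes and 1 library per genotype. On the deposited densities the small subunit has a median of -0.17, the large subunit -0.12 and the copies -0.13, while the assembly factors have 0.099, a sign that turns when GC content and length are corrected for.

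Other large protein complexes are set beside these values. Of 48 listed mitochondrial ribosomal protein genes, 43 (89.6%) were lower with a median of -0.17. Of 23 listed proteasome subunit genes, 22 (95.7%) were lower with a median of -0.14. Over all listed genes 63.9% were lower, with a median of -0.11. None of the mitochondrial ribosomal genes was past 1.5-fold. Of the proteasome genes 1 was (4.35%), Psmb5, at 154 RPKM in WT and 99.9 RPKM in KO, named after its values were seen. Of all listed genes, 5.49% were at least 1.5-fold lower. No test of these lists against each other can be made from 1 library per group.

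GC content and gene length moved with the difference over the whole table. Spearman's rho of the log2 difference with exonic GC content was -0.42 over 10508 genes and -0.29 over the 51 members, and with exonic length 0.27 and 0.13, given as descriptions. After a correction that subtracts the median of genes of like GC content and length and adds back the median of all genes, 42 of 51 members were lower, beside 75.9% of all genes, and 2 members were 1.5-fold lower. The corrected median of the members was -0.11, equal to that of all genes, and 24 of the 51 lay below the median of their matched genes. What part GC content or length has in the members' differences was not tested beyond that. Markers of other cell types also differed between the libraries: 12 of 13 erythroid genes were lower in KO, with a summed density of 661 RPKM in WT against 56.9 RPKM in KO, as were 13 of 13 leukocyte genes (17.9 and 2.97 RPKM), 19 of 19 endothelial genes (93.6 and 64.1 RPKM) and 19 of 22 stromal genes (695 and 502 RPKM). A large part of the stromal sum is Aldh1a2, at 272 RPKM in WT and 286 RPKM in KO, and of the endothelial sum Ramp2, at 50.7 RPKM in WT and 43.8 RPKM in KO. By gene, the median difference was -1.26 in stroma with 17 of 22 at least 1.5-fold lower, -0.44 in endothelium with 7 of 19, -0.66 in leukocytes with 7 of 13 and -0.28 in erythroid cells with 6 of 13. Of all listed genes, 63.9% were lower and 5.49% at least 1.5-fold lower. Of these markers, 2 erythroid genes were at 0 in KO and no listed marker was at 0 in WT. Their part in the ribosomal protein values was not tested.

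Promoter sequence was matched for 36 members among RefSeq windows of GRCm38.p6 that run from 250 bases before to 50 after the start. The motif CTTTCC, a pyrimidine tract looked for on the sense strand, was in 10 of the members' 36 windows (27.8%). It was in 14.05% of all 27025 windows and 14.0% of those of listed genes. CCGGAAG, the core bound by ETS factors such as Gabpa, looked for on both strands, was in 14 (38.9%), against 9.12% and 15.2%. AAGATGGC, a Yy1 sequence looked for on both strands, was in only 3 (8.33%), against 2.88% and 3.94%. TATAAA on the sense strand was in only 4 (11.1%), against 8.88% and 4.58%. Each of these is a match of letters within the window and not a binding site.

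The 2 promoters of the members with the largest positive difference as a gene (Fau) and as a family (Rps18) are shown over 100 bases before and 20 bases after the start, with motif matches in capitals. Fau lies on the plus strand at chr19:6057847-6057966 and has no match in this stretch, and Rps18 lies on the minus strand at chr17:33955646-33955765 and has 1 match, to CCGGAAG.
Fau promoter: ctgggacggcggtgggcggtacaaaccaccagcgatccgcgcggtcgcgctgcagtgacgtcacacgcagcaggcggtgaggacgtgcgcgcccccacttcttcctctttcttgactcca
Rps18 promoter: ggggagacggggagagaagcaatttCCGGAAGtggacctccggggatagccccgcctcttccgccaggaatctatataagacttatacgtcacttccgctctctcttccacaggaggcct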

How the data were processed

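Each genotype has 1 RNA library of sorted progenitors. The tools were, per the submitters' processing notes, CASAVA 1.8, Novoalign 2.08.02 and FastQC and the builds GRCm38 and mm10; no counting rule or strand is given in the sources used here. The authors deposited a read density, which behaves as RPKM (read from the values), and a p-value, a corrected p-value (at most 0.0499827), a fold ratio and a signed fold change, a score negative where KO was lower. The deposited fold ratio carries a further scaling of 0.057 on the log2 scale.

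Differences are log2(KO + 1) minus log2(WT + 1), which understates folds at low density; 1.5-fold was the size rule. Reads were estimated from density, exon length (GENCODE vM21) and implied depth, and exact (Clopper-Pearson) 95% intervals of their ratio are approximate. These lengths need not be those behind the deposited densities. Among genes at 0 in the other library, the depth they imply agreed within 0.5% for 100 of 149 in WT and 48 of 67 in KO. Estimated reads, RPM and family shares are therefore approximate too. Copies were found with blastn 2.17.0 (exon model at most 1500 bases; 3 longer loci left out). The GC and length correction used 10 by 4 bins. The scripts were tested on simulated data. The members and lists were chosen with earlier results of these data known. Named were the 8 lowest and 8 highest members, the 4 highest and 4 lowest by density, those past 1.5-fold, those with known further roles, and the 2 lowest and 2 highest of each further list of the pathway; others were chosen after their values were seen. Values of 2 members are not reported singly here and are left out of the plots that name genes; all counts and medians in the text include them.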

Additional observations from a re-analysis of the deposited data

How the results depend on the processing

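The members' median (-0.16) was -0.045 centred on all genes, -0.10 under the authors' scaling, -0.11 corrected for GC content and length, -0.12 in the large subunit, -0.109 with copies added, -0.111 with copies at 90% identity and -0.111 in members without a copy. Of 43 lower, the large subunit held 24, the small 19 and members without a copy 10. The count of 4 at least 1.5-fold lower became 1 when centred, with copies added at either identity or under a 2-fold rule, 2 with the GC and length correction and in each subunit, and 0 without copies. The count of 2 higher became 1 with a pseudocount of 4, over the 50th percentile of density, with copies added or under a 2-fold rule, and 0 over the 75th percentile, in the large subunit, with copies at 90% identity or in members without a copy. With copies added, Fau became -0.10, Rps18 1.20, Rps2 0.056 and Rps23 -0.12. The cause was not tested. The copy settings and the removal of Rpl24 were chosen after seeing the data. Over the 27 named members, 77 values under alternatives moved by less than the counting interval, 75 moved by more and the 4 above were reversed. In all, 12 changed sign: those 4, Rpl9, Rpl37a, Rps7 and Rps28 with copies added, and Rpl10a, Rpl22, Rplp0 and Rps3 when centred. No paired analysis was possible because each group has 1 library and the labels carry no replicate numbers. Depth limits mainly the members under 10 RPKM.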
